A study of Mus musculus with 6 samples.

Results

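Cyp26a1, Cyp26b1, Cyp26c1, Dhrs3 and Lrat are the 5 genes described here, out of 23235 gene rows measured by mRNA sequencing. They were chosen by name for their known part in removing or storing retinoids. No measured value was a criterion, but earlier results of these data were known when the choice was made. The RNA came from E14Tg2a, a mouse embryonic stem cell line, at passages 37 to 40. The ESC group held 3 samples of pluripotent embryonic stem cells (ESCs) grown in serum with leukemia inhibitory factor (LIF), a cytokine that maintains self-renewal. The NC group held 3 samples of the same line kept without LIF and given 1 µM retinoic acid (RA) for 48 h, which the study names neuronal cells (NCs). LIF was withdrawn and RA was added in the same group, so their contributions cannot be told apart. Both groups carry the genotype of this single line, and no mutation or transgene separates them.

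RA is made from vitamin A (retinol) by oxidation to retinal and then to RA, and it acts through nuclear RA receptors that bind DNA together with retinoid X receptors. Its level in a tissue is set by synthesis and by removal. CYP26A1, CYP26B1 and CYP26C1 are cytochrome P450 enzymes of the endoplasmic reticulum that hydroxylate RA, which starts its breakdown. DHRS3 reduces retinal back to retinol and so takes substrate away from RA synthesis, and LRAT attaches a fatty acid to retinol to give retinyl esters, the storage form. In the vertebrate embryo the CYP26 enzymes keep RA out of particular regions, such as the anterior hindbrain and the growing tail end.

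The deposited table gave 1 value per condition for each gene, in FPKM, the sequenced fragments of a gene corrected for transcript length and for library size. The values of the 3 samples in each group were merged by the authors before deposit, so the spread between samples is not known here and no test between ESCs and NCs could be run. Every comparison below is therefore a description of a pair of pooled values, and the number of reads behind each is also unknown. A gene was called higher or lower when its FPKM differed by at least 2-fold and reached at least 1 FPKM in the higher condition. Of the 23235 rows, 13293 reached 1 FPKM in ESCs or NCs, and 3653 were listed at 0 in both. Among the 13293 rows, 1658 (12.5%) were higher in NCs and 1412 (10.6%) were lower. The summed FPKM was 770592 in ESCs and 628679 in NCs, and setting both sums equal adds 0.29 to every log2 ratio of NC to ESC, after which 2350 rows were higher and 980 lower. The median log2 ratio of the 11717 rows with at least 1 FPKM in both conditions was -0.05.

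The group labels were compared with marker genes. All 8 pluripotency markers were lower in NCs, with Pou5f1 at 832 in ESCs and 37.1 FPKM in NCs, and their summed level was 5756 in ESCs and 862 FPKM in NCs. Of 8 neural progenitor markers 7 were higher in NCs, with Pax6 at 3.64 and 65.2 FPKM, and the sum was 24.2 in ESCs and 175 FPKM in NCs. Neuron markers went against the name of the NC group: none of the 6 that reached 1 FPKM was higher in NCs and 3 were lower, and their list summed to 54.7 in ESCs and 13.0 FPKM in NCs. Tubb3 stood at 33.4 in ESCs and 7.54 FPKM in NCs, and Rbfox3 at 1.11 and 0.832 FPKM. Dcx had the larger value in NCs but was under 1 FPKM in both conditions, at 0.0140 and 0.334 FPKM. Markers of other lineages also differed, with 6 of 8 endoderm, 2 of 3 trophoblast, 4 of 6 fibroblast and 0 of 2 mesoderm markers above 1 FPKM called higher in NCs and 1 fibroblast marker, Thy1, called lower. Their sums in ESCs and NCs were 56.9 and 112 FPKM for endoderm, 78.4 and 169 FPKM for trophoblast, 98.1 and 238 FPKM for fibroblast, and 5.001 and 3.81 FPKM for mesoderm. The 2 trophoblast calls were Krt8, at 30.5 and 64.2 FPKM, and Krt18, at 45.7 and 103 FPKM. Of the other trophoblast markers, Cdx2, Elf5 and Hand1 were under 1 FPKM in both conditions, and Eomes stood at 1.25 and 0.657 FPKM. Vim, at 76.7 and 192 FPKM, was the largest part of the fibroblast sum. In these bulk samples a different share of cells of a type and a different amount of RNA per cell cannot be told apart, and the part of these cell types in the values below was not tested.

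Cyp26a1, Cyp26b1, Cyp26c1 and Dhrs3 were higher in NCs than in ESCs and Lrat was near 0 in both. The 5 genes thus gave 4 calls higher and 0 lower, where 12.5% of all rows that reached 1 FPKM were called higher and 10.6% lower. Of the 4, Dhrs3 passed the filter on low values in ESCs, and the 3 Cyp26 genes reached 1 FPKM in NCs alone. Lrat did not pass it. The median log2 ratio of NC to ESC over all 5 genes was 4.18.

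**Figure D1:**
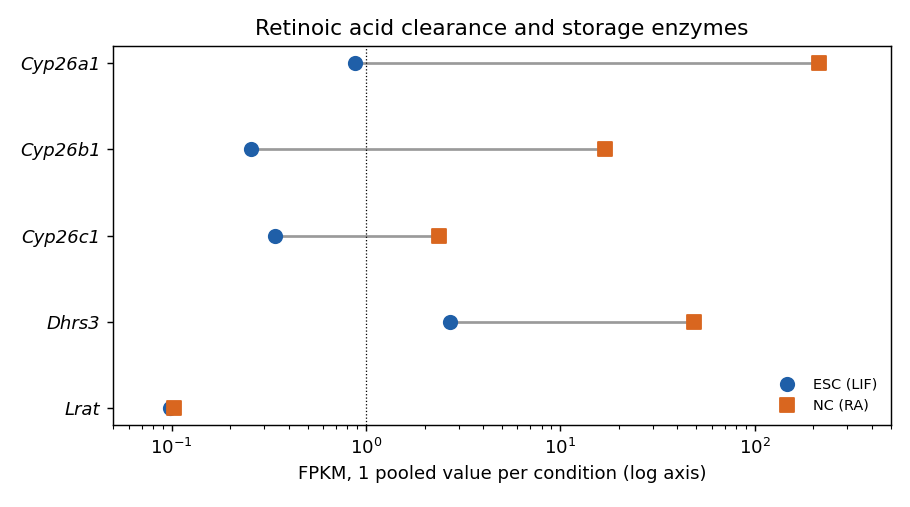
FPKM of the 5 genes on a log axis, 1 pooled value per condition, with circles for ESCs, squares for NCs, a line joining the pair and a dotted line at 1 FPKM. Cyp26a1 spans 0.874 to 215 FPKM, Dhrs3 begins above 1 FPKM in ESCs, and the 2 symbols of Lrat overlap near 0.1 FPKM.

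The order of the genes differed between the conditions. In ESCs Dhrs3 had the highest FPKM of the 5 genes, followed by Cyp26a1, Cyp26c1, Cyp26b1 and Lrat. In NCs Cyp26a1 came first, then Dhrs3, Cyp26b1, Cyp26c1 and Lrat. Because each value has no error, whether neighbours in either order differ beyond the spread between samples is not known. The closest pair in ESCs was Cyp26c1 and Cyp26b1, at 0.338 and 0.257 FPKM. Against the whole table, 45.8% of rows had a lower FPKM than Cyp26a1 in ESCs and 98.4% had a lower FPKM in NCs. The corresponding shares in ESCs and NCs were 37.7% and 78.7% for Cyp26b1, 39.4% and 52.5% for Cyp26c1, and 54.8% and 92.2% for Dhrs3. Lrat kept a similar place, with 32.1% of rows below it in ESCs and 31.0% in NCs.

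**Figure D2:**
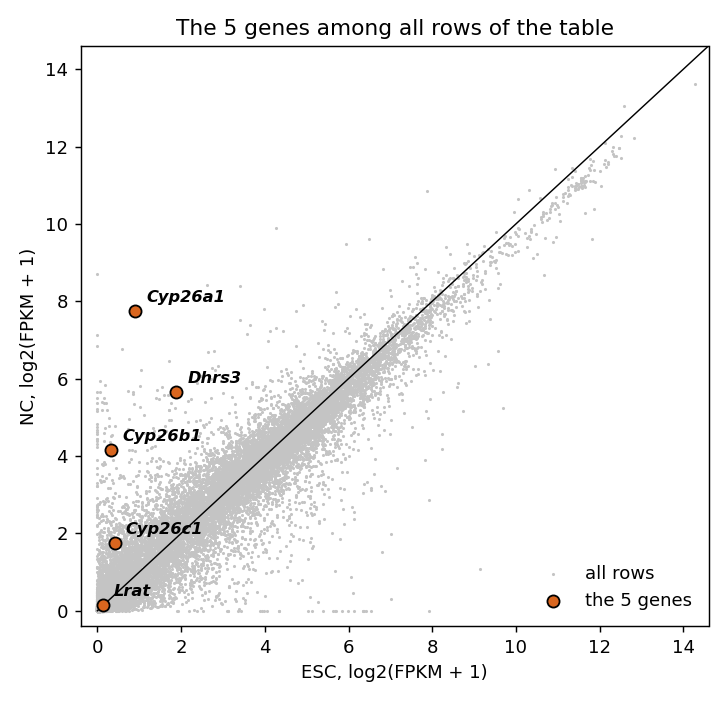
Every row of the table as a grey point, with log2(FPKM + 1) in ESCs on the horizontal axis and in NCs on the vertical axis, the line of equal values, and the 5 genes in orange. Cyp26a1, at 0.91 in ESCs and 7.76 in NCs, lies far above the line in a part of the plot with few other rows, and Lrat lies on the line.

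Cyp26a1 encodes an RA hydroxylase whose gene is a well known direct target of RA. It lies at chr19:37697798-37701536 on the plus strand of GRCm38 (mm10), with 7 exons in its main transcript of 1791 bases. The 250 bases before its RefSeq start are printed because the gene had the largest difference of the 5 and because this stretch holds a pair of receptor hexamers, which the capitals mark as they read on the plus strand.
Cyp26a1, chr19:37697558-37697807, plus strand: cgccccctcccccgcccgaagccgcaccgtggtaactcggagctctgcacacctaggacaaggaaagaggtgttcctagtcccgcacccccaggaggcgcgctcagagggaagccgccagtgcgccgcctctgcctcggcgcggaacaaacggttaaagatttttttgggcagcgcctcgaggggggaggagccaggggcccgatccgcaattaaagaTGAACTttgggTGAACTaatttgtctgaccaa

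RA receptor dimers are known to bind direct repeats of a hexamer, often with 5 bases between the copies. The windows of 7 RefSeq starts of the 5 genes, each with 250 bases before and 50 after the start, were searched on both strands for AGGTCA or AGTTCA repeated in the same direction. With a spacing of 5 bases the repeat was found in 13 of 32851 mouse windows (0.0396%) and in 1 of the 7, that of Cyp26a1. It lies 32 to 16 bases before the start. A gene model that starts on the other strand, Gm32342, has the same copy in its own window. Spacings of 1 and 2 bases gave 27 windows (0.0822%) and 13 windows (0.0396%), none of them from the 5 genes. A single copy of either hexamer, which 27.7% of all windows hold, was found in the Cyp26a1 window and in none of the other 6. The Dhrs3 windows among these 6 partly overlap, and bases outside the windows were not searched. When GGGTCA and GGTTCA were also taken, a choice made after the data were seen, 32 windows (0.0974%) held a repeat spaced by 5 bases, among them that of Rarb, the RA receptor gene long used as a model for this repeat. The repeats of Cyp26a1 and Rarb are set side by side on the strand where the hexamers read forward, with the hexamers in capitals.
Cyp26a1, chr19:37697776-37697792, minus strand: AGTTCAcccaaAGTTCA
Rarb, chr14:16575513-16575529, minus strand: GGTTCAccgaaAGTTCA
A match describes letters in a window and shows no binding.

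The study's primers for Cyp26a1 show which parts of the gene it assayed outside the sequencing. The chromatin primers lie at -110 to -92 and at 2 to 20 relative to the RefSeq start, so their product of 131 bases contains the repeat. The primers for mRNA lie in exon 6 and across the junction of exons 6 and 7, and together span 324 bases of the genome. No assay made with them was analysed here.
Chromatin forward, chr19:37697698-37697716, plus strand: gcggaacaaacggttaaag
Chromatin reverse, chr19:37697810-37697828, minus strand: caggttactgcccacgtta
mRNA forward, chr19:37700699-37700717, plus strand: aaggagaccctgcgattga
mRNA reverse, spliced, chr19:37700762-37701022, minus strand: ggatctggtatccattcagctc

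Cyp26a1 stood at 0.874 in ESCs and 215 FPKM in NCs. The NC value was 246-fold the ESC value, a log2 ratio of 7.94, or a difference of 6.85 on the log2(FPKM + 1) scale. Among the 13293 rows it had the 56th highest ratio. Of the 55 rows above it, 43 were listed at 0 in ESCs, where the ratio has no bound, and the other 12 reached at most 60.3 FPKM in NCs. On the log2(FPKM + 1) scale 3 rows had a larger difference, and these 3 were small RNA rows listed at 0 in ESCs. No row with at least 1 FPKM in ESCs had a larger ratio. In NCs 363 rows had a higher FPKM than Cyp26a1, and 24 of these were at least 2-fold higher than in ESCs. Rows that reached 100 FPKM in NCs from under 1 FPKM in ESCs numbered 5, and Cyp26a1 and Hoxb2, a homeobox gene of the hindbrain, were those above 0 in ESCs.

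Cyp26b1 encodes the hydroxylase known from hindbrain, limb and gonad. Its gene, at chr6:84571414-84593908 on the minus strand, has 7 exons and a main transcript of 4157 bases. Cyp26b1 was measured at 0.257 FPKM with LIF and at 16.96 FPKM with RA, which is 66.0-fold higher, a log2 ratio of 6.04. That ratio was the 96th of the 13293, and the difference on the log2(FPKM + 1) scale was 3.84. With 1 FPKM added to both values the folds come to 14.3 for Cyp26b1 and 115 for Cyp26a1.

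Cyp26c1 encodes the hydroxylase known from the embryonic head and hindbrain. It lies on the same chromosome and strand as Cyp26a1, at chr19:37685581-37693398, with 6 exons in 1 annotated transcript of 1747 bases. It was measured at 0.338 FPKM with LIF and at 2.37 FPKM with RA, a 7.01-fold higher value with a log2 ratio of 2.81, the 409th of the 13293. This was the lowest NC level of the 3 Cyp26 genes, and Cyp26c1 lost its call when the higher condition had to reach 5 FPKM. With 1 FPKM added to both values it was 2.52-fold higher.

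The end of Cyp26c1 lies 4.4 kb before the start of Cyp26a1, and the starts of the pair are 12.2 kb apart, in the same direction. Apart from each other, none of their nearest measured genes was called. Hhex, a homeobox gene 263 kb before Cyp26a1, stood at 5.02 in ESCs and 5.58 FPKM in NCs. Exoc6, a gene of the exocyst complex 147 kb before it, stood at 9.63 and 8.96 FPKM. Beyond Cyp26a1, Myof, a membrane repair gene 346 kb away, stood at 5.32 and 6.29 FPKM, and Cep55, a cytokinesis gene 357 kb away, at 34.5 and 22.6 FPKM. Of the 6 nearest genes of Cyp26a1, 5 reached 1 FPKM and 1 was called, which was Cyp26c1.

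**Figure D3:**
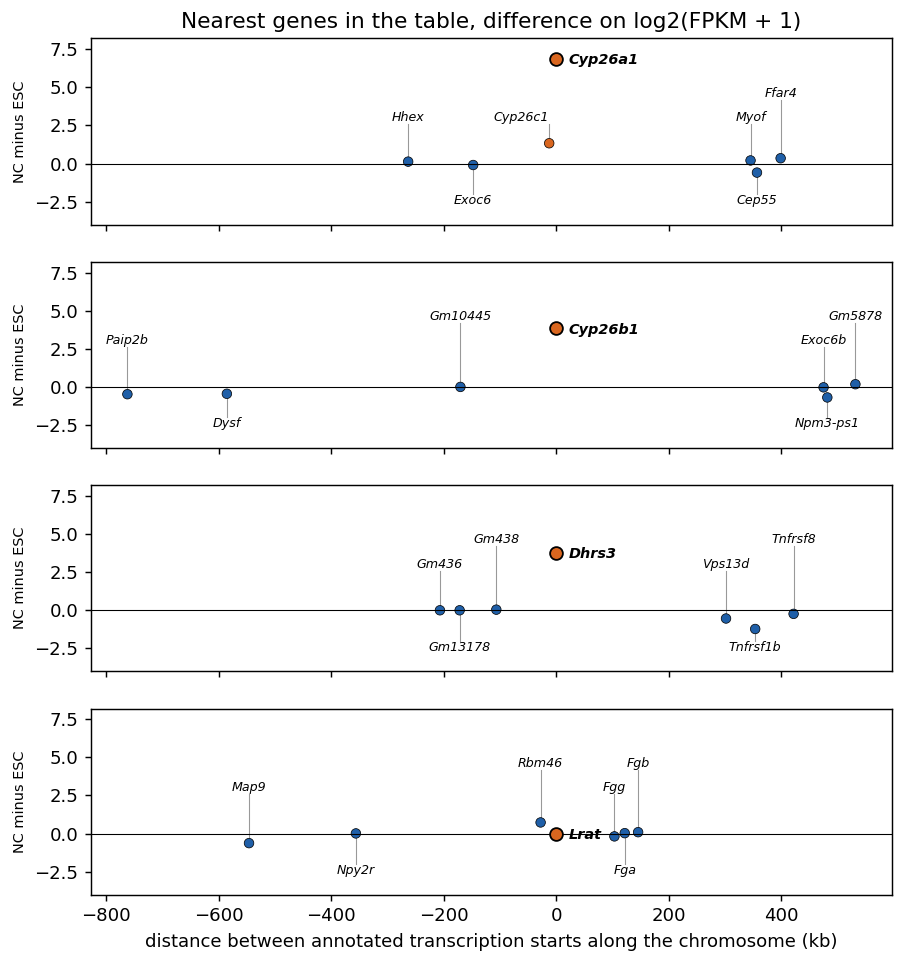
Difference between NCs and ESCs on the log2(FPKM + 1) scale for Cyp26a1, Cyp26b1, Dhrs3 and Lrat (large orange points at 0 kb) and for the 3 nearest genes of the table on each side, by distance between annotated starts in kb. Cyp26a1 stands at 6.85 and its neighbour Cyp26c1 at 1.33, and no other neighbour lies as high as Cyp26c1.

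Around Cyp26b1 no neighbour was called higher. Exoc6b, 476 kb away, stood at 8.61 in ESCs and 8.44 FPKM in NCs, and Npm3-ps1, annotated by its name as a pseudogene, was 2.49-fold lower, at 1.74 and 0.698 FPKM. Near Dhrs3 the 3 genes before it were at or near 0 in both conditions, and Tnfrsf1b, a tumour necrosis factor receptor gene 354 kb after it, was 3.26-fold lower, at 4.73 and 1.45 FPKM.

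Dhrs3 encodes the short-chain dehydrogenase that returns retinal to retinol. It lies at chr4:144892827-144928209 on the plus strand, with 7 annotated transcripts and 6 exons in the main transcript of 2337 bases. Dhrs3 stood at 2.70 in ESCs and 49.0 FPKM in NCs, which is 18.2-fold higher, a log2 ratio of 4.18 and the 199th of the 13293. It was the only gene of the 5 above 1 FPKM in both conditions. In ESCs its level was 3.08 times that of Cyp26a1, and in NCs the ratio was 0.227.

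Lrat encodes the acyltransferase of retinol storage. It lies at chr3:82892579-82903973 on the minus strand, with 2 exons and a transcript of 5351 bases, and a gene on the other strand, Rbm46os, overlaps its span but shares 0 exon bases with it. Lrat stood at 0.0979 in ESCs and 0.103 FPKM in NCs, a ratio of 1.05. Both values are low and the reads behind them are unknown, so they cannot be told from the absence of the transcript. Rbm46, which starts 27.5 kb before Lrat along the chromosome and encodes a germ cell RNA-binding protein, was 2.63-fold higher in NCs, at 0.682 and 1.80 FPKM.

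The 3 Cyp26 genes summed to 1.47 in ESCs and 235 FPKM in NCs, 159.7-fold higher. Their make-up also differed in these values, though the ESC shares rest on 3 values under 1 FPKM whose precision is unknown. Cyp26a1 gave 59.5% of that sum in ESCs and 91.8% in NCs, Cyp26b1 17.5% and 7.23%, and Cyp26c1 23.0% and 1.01%. Cyp26a1 thus exceeded Cyp26b1 by 3.40 times in ESCs and 12.7 times in NCs, and exceeded Cyp26c1 by 2.59 times and 90.9 times.

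Against the enzymes that make RA, the sum of the 3 Aldh1a genes, which encode the retinal dehydrogenases of the last step of synthesis, was 1.36 in ESCs and 14.5 FPKM in NCs, 10.7-fold higher. The summed Cyp26 level was 1.08 times the summed Aldh1a level in ESCs and 16.2 times in NCs. Both ESC sums are low, so the ratio in ESCs is uncertain. Cyp1b1, a P450 that can also oxidise retinal, is outside the Aldh1a sum and stood at 1.03 in ESCs and 55.4 FPKM in NCs. The ratio of removal to synthesis genes therefore depends on which genes of synthesis are summed. These are transcript levels and say nothing of enzyme activity or of RA itself, which was not measured in these files.

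The other genes of the pathway were described from lists arranged by step, none of which includes the 5 genes. Together they held 60 genes that reached 1 FPKM, of which 24 were higher in NCs and 4 lower. Beside these, 12.5% of all rows that reached 1 FPKM were higher and 10.6% lower.

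In RA synthesis 5 of 11 genes were higher in NCs and 0 lower, with a median log2 ratio of 0.75. With a minimum of 5 FPKM 3 of 8 were higher, as Adh1 and Rdh1 lost their calls. When the FPKM sums were set equal 7 of 11 were higher. A 1.5-fold limit gave 7 higher and 2 lower, and no filter gave 7 higher and 3 lower of 17. Cyp1b1, a P450 that can oxidise retinol and retinal, stood at 1.03 in ESCs and 55.4 FPKM in NCs, and Aldh1a1, a retinal dehydrogenase of the adult eye and liver, at 0.0433 and 9.40 FPKM. Aldh1a2, the main retinal dehydrogenase of the early embryo, was 4.36-fold higher, at 1.16 and 5.05 FPKM. The alcohol and retinol dehydrogenase genes Adh1 and Rdh1 stood at 0.149 and 2.22 FPKM and at 0.372 and 3.58 FPKM. The most abundant members were not called, with Adh5, a widely expressed alcohol dehydrogenase, at 252 and 162 FPKM and Rdh11 at 35.6 and 20.7 FPKM. Rdh10, which oxidises retinol in the embryo and is known to act together with DHRS3, was 1.67-fold higher, at 3.70 and 6.19 FPKM, and so was not called. With the FPKM sums set equal Rdh10 passed the limit.

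Of the genes for retinoid uptake and binding 5 of 8 were higher and 0 lower, with a median log2 ratio of 2.00. Crabp2, which carries RA to the nucleus, stood at 18.3 in ESCs and 949.8 FPKM in NCs, and Crabp1, a cytosolic RA-binding protein, at 40.2 and 178 FPKM. Stra6, the membrane receptor for retinol-binding protein, was 44.3-fold higher, at 0.678 and 30.0 FPKM. Rbp4, the blood carrier of retinol, was 3.60-fold higher, at 2.36 and 8.49 FPKM. Fabp5, which can also carry RA to a nuclear receptor, stood at 81.9 and 87.4 FPKM, and Rbp7 at 4.72 and 2.53 FPKM, neither of them called.

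Other genes listed for retinal reduction or for retinyl esters gave no call in the direction of Dhrs3. Of 9 other retinal reductase genes 0 were higher and 0 lower, with a median log2 ratio of -0.30. When the FPKM sums were set equal, no filter was used or the limit was 1.5-fold, 1 was higher. The 1.5-fold limit also gave 2 lower. Rdh11, Rdh12, Rdh13 and Rdh14, 4 of these 9, also stand among the RA synthesis genes. Akr1b3, an aldo-keto reductase, stood at 224 in ESCs and 182 FPKM in NCs. Of 7 other genes in the retinyl ester list, which also holds Retsat and Rarres2, 0 were higher and 2 lower, with a median of -0.17. The lower ones were the lipase genes Pnpla2, at 23.2 and 11.5 FPKM, and Pnpla3, at 1.64 and 0.647 FPKM. Pnpla2 lies at the limit, 2.02-fold lower, and lost its call under 5 of 9 alternative settings, the 3 other scalings among them, and Pnpla3 under 3 of 9. With 1 FPKM added to both values 0 genes of this list were lower. Dgat1, which can esterify retinol in place of LRAT, stood at 10.9 and 13.1 FPKM, and Retsat, which saturates retinol, at 8.22 and 6.61 FPKM.

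P450 enzymes need electrons and heme. Of 7 genes for electron donors and heme supply 0 were higher and 1 was lower, with a median log2 ratio of -0.31. Por, the reductase that passes electrons to the P450s of the endoplasmic reticulum, stood at 24.2 in ESCs and 32.2 FPKM in NCs. Cyb5r3 and Cyb5b, of the cytochrome b5 system, stood at 93.0 and 90.2 FPKM and at 35.7 and 49.2 FPKM, and Hmox1, which breaks heme down, was 2.34-fold lower, at 48.1 and 20.5 FPKM, a call lost when the FPKM sums were set equal. Among other P450 and glucuronosyltransferase genes linked to RA breakdown, Cyp2s1 alone reached 1 FPKM and was 3.88-fold lower in NCs, at 5.50 and 1.42 FPKM.

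Of the 7 receptor genes 2 were higher and 0 lower, with a median log2 ratio of 0.10. Rarb stood at 0.128 in ESCs and 25.5 FPKM in NCs, 199.99-fold higher, and Rxra at 5.17 and 19.2 FPKM, 3.72-fold higher. Rara, Rarg and Rxrb were not called, at 21.2 and 18.005, 33.5 and 17.04, and 31.4 and 33.6 FPKM. Of 18 genes listed as textbook direct targets of RA, 16 were higher and 0 lower, with a median log2 ratio of 5.58, and 4 of these 18 also stand in the lists above. Hoxb1, a hindbrain homeobox gene, stood at 0.126 and 56.1 FPKM, and Tshz1, a zinc finger gene, at 0.172 and 35.6 FPKM. Tgm2, a transglutaminase, and Egr1, an immediate early gene, were not called, at 6.90 and 5.96 FPKM and at 6.57 and 9.94 FPKM. In FPKM in NCs, Cyp26a1 exceeded Rarb, Hoxb1 and Tshz1, and Crabp2 and Stra8, a germ cell gene at 5.15 and 340.2 FPKM, exceeded Cyp26a1.

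**Figure D4:**
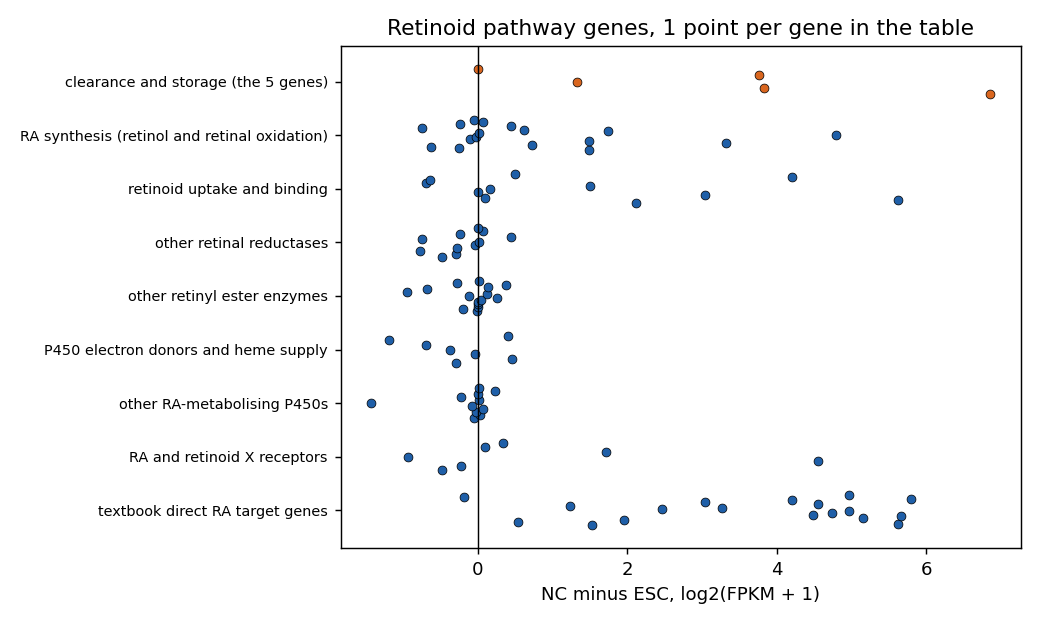
Difference between NCs and ESCs on the log2(FPKM + 1) scale, 1 point for each gene of a list found in the table, with the 5 genes in orange in the top line and the other lists in blue, spread vertically for legibility. Cyp26a1 stands furthest right of all points, and the reductase, ester, electron donor and other P450 lists have no point as far right as Cyp26c1, at 1.33.

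Within their own gene families the members changed place. Of 102 cytochrome P450 rows 18 reached 1 FPKM, 4 were higher in NCs and 4 lower. The P450 rows summed to 90.3 FPKM with LIF and 362 FPKM with RA, of which the Cyp26 genes made up 1.63% and 64.8%. By FPKM Cyp26a1 ranked 17th of the P450 rows in ESCs and 1st in NCs, Cyp26b1 28th and 4th, and Cyp26c1 26th and 12th. In NCs the places after Cyp26a1 went to Cyp1b1 and to Cyp51, the sterol demethylase, which stood at 26.4 in ESCs and 22.8 FPKM in NCs. Of 23 rows named Rdh or Dhrs 13 reached 1 FPKM, 2 were higher, Dhrs3 and Rdh1, and 0 were lower. Dhrs3 ranked 11th of them in ESCs and 1st in NCs, and made up 1.92% and 28.6% of their summed level. Dhrs7b, a related dehydrogenase gene of the next place in NCs, stood at 26.3 and 22.5 FPKM. The family counts include the genes described here, and the higher P450 rows were the Cyp26 genes and Cyp1b1. Among all rows that reached 1 FPKM, 12.5% were higher and 10.6% lower.

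The rows most like each gene were taken as the 3 nearest by distance over its 2 values of log2(FPKM + 1), a likeness over 2 points only. Nearest to Cyp26a1 was Hoxb2, at 0.508 in ESCs and 107 FPKM in NCs (distance 1.05), followed by the microRNA rows Mir680-3 and Mir1895, listed at 0 in ESCs. Nearest to Cyp26b1 were Zfp503, Hoxb7 and Ednrb, at 19.5, 14.0 and 19.9 FPKM in NCs (distances 0.19, 0.26 and 0.27). The rows closest to Cyp26c1 were Nkx2-5, Psd3 and Flrt2, all within 0.029. Those closest to Dhrs3 were Tcstv3, Zscan4f and Zscan4c, at 50.2, 47.0 and 40.5 FPKM in NCs. These last 3 belong to multicopy families, whose reads the authors' counting could divide among near-identical copies, so their values are uncertain.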

How the data were processed

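Total RNA from 3 ESC and 3 NC samples was sequenced as TruSeq libraries on an Illumina HiSeq. Per the labels and the study's methods, the authors aligned reads to mm10 with Bowtie2 2.1.0 under TopHat2 2.0.8 and used Cufflinks 2.0.2 and Cuffdiff (version not given in the sources used here). The deposited table holds 1 FPKM value per gene and condition, normalized by transcript length and library size by the authors and merged over the samples. The heading of the NC column reads FPK and was taken as FPKM. Its 11 columns also hold the authors' own comparison (fold changes, test statistics, p-values, q-values and a significance flag), which was not used. No depth or replicate values are given in this table, so no SD, interval or p-value was computed.

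NC over ESC ratios were taken without a pseudocount, with a call at 2-fold and at least 1 FPKM in the higher condition. Pathway and family lists are described by counts and medians. Gene models came from GENCODE M21 on GRCm38, in which 21236 of the 23235 row names matched once, and promoter windows from RefSeq on GRCm38.p6. Named genes were the 5 members, list genes past the call (the 3 largest each way where over 6) and the 2 most abundant not past it, the neighbours, the 3 nearest rows, and the 3 highest of each family. Rdh10, Por, Rara and other genes outside this rule were named after their values were seen. The values of 1 list gene are not reported here. The members and lists were chosen with earlier results of these data known. The counting was run on simulated data with exact changes past the limit planted in well expressed rows. This checks the code and not calls at low FPKM. A planned protein comparison was not run. Alternatives changed scaling, pseudocount, filter, fold limit, repeated names and, added later, the promoter hexamers. Python 3.11.15, numpy 2.4.6, pandas 2.3.3 and matplotlib 3.10.9 were used.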

Additional observations from a re-analysis of the deposited data

How the results depend on the processing

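Of the 5 genes, 4 were higher in NCs and 0 lower under the alternatives of scaling, pseudocount, filter and fold limit, except that 3 were higher when the higher condition had to reach 5 FPKM, which Cyp26c1 does not. Over scaling and pseudocounts the log2 ratio ran from 6.85 to 8.24 for Cyp26a1, 3.84 to 6.34 for Cyp26b1, 1.33 to 3.10 for Cyp26c1, 3.76 to 4.48 for Dhrs3 and 0.0067 to 0.37 for Lrat, with the lowest value of each from adding 1 FPKM, which reduces the ratio of genes with low ESC values by construction. The folds so reached were 115 for Cyp26a1, 14.3 for Cyp26b1 and 2.52 for Cyp26c1. Over all rows, 1658 were higher and 1412 lower. Adding 1 FPKM left 1074 higher. With no filter 3861 were higher and 2880 lower, and with a minimum of 5 FPKM 821 and 863. A 1.5-fold limit gave 2741 and 2573, and a 4-fold limit 679 and 488. Setting both FPKM sums equal moved the share of higher calls from 54.0% to 70.6%. Of the pathway list genes 4 were lower. This count was 2 with equal sums, 2 with 1 FPKM added, 10 with no filter, 11 at 1.5-fold and 0 at 4-fold. The share of promoter windows with the repeat was 0.0396% with 2 hexamers and 0.0974% with 4. All other counts over the 5 genes, all rows or all list genes stayed within 1.5 times. No paired analysis was possible because the table has 1 pooled column per condition, and for the same reason no sample could be left out. Depth is unknown, so the precision of Lrat and of the ESC values of the Cyp26 genes cannot be stated.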

Other observations

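While the 3 Cyp26 genes and Cyp1b1 were the P450 genes called higher in NCs, the 4 called lower were other P450 genes. Besides Cyp2s1 they were Cyp2j9, at 1.72 in ESCs and 0.3001 FPKM in NCs, Cyp2j13, at 2.08 and 0.0986 FPKM, and Cyp2b23, at 1.11 and 0.0204 FPKM. The CYP2J enzymes are known for oxidising fatty acids. Cyp2j9, Cyp2j13 and Cyp2b23 have close paralogs, and how reads shared with these were counted is not known here.

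The direct repeat spaced by 5 bases, searched with 4 hexamers, was found in the windows of 31 genes, of which 9 were in the table and 3 reached 1 FPKM. Cyp26a1 and Rarb were higher in NCs. Blvrb, which encodes a biliverdin reductase, was lower, at 53.2 in ESCs and 24.2 FPKM in NCs. These 3 genes were named after their values were seen. With the 2 planned hexamers the repeat was in the windows of 13 genes, of which 4 were measured and 2 reached 1 FPKM. Of these 2, Cyp26a1 was higher and Blvrb lower, and Rarb was not among the 13. Among all rows that reached 1 FPKM, 12.5% were higher and 10.6% lower. With so few genes, a link between the repeat and the difference was not tested.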
